A study of Mus musculus with 8 samples.

Results

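A protein bound for secretion enters the endoplasmic reticulum (ER) through a fixed chain of machines, and 35 mouse genes that encode them were followed here in pancreatic islets. They were taken by symbol from the 14126 genes of the deposited table, without a cutoff on their values, and grouped by complex. Earlier results of these data were known when they were chosen. The groups were the signal recognition particle (SRP) with its receptor (8 genes), the Sec61 channel with its accessory proteins (8), the translocon-associated protein complex TRAP (4), signal peptidase (5) and the oligosaccharyltransferase OST (10).

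SRP binds a signal sequence as it leaves the ribosome and docks on its receptor at the ER membrane, and the chain then passes through Sec61 with the help of TRAP. Signal peptidase cuts off the signal sequence, and OST transfers a preassembled glycan onto asparagine residues of the entering chain. Insulin-secreting beta cells send a large flow of preproinsulin through this route, and IRE1α, through the transcription factor XBP1, is a textbook regulator of many of these genes.

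Bulk RNA sequencing was done on hand-picked islets of 7-week-old NOD/ShiLtJ mice, a strain prone to autoimmune diabetes. The KO group (4 libraries) had the genotype label IRE1αβ-/-, and the WT group (4 libraries) had the label IRE1αfl/fl, a floxed allele of Ern1, which encodes IRE1α. All mice are recorded as receiving tamoxifen at 10 mg/ml, injected into the abdomen 2 times per 24 h on 5 consecutive days, to switch on Cre recombinase. The labels do not name the promoter that drives Cre, or say whether the WT mice carried it. The design text gives 4 mice per group, so each library was taken as an animal.

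Values are normalized counts that the authors rounded, and they summed to between 32024139 and 34858983 per library. These sums follow normalization, so sequencing depth is unknown and the precision rests on 4 libraries per group. Ern1 averaged 7188 ± 195 in KO and 4959 ± 488 in WT (SD, n = 4 each). It was higher in KO in the limma fit described below (log2 fold change of 0.54 ± 0.08, adjusted p = 0.0023), without overlap. This is a value for the whole gene that does not check a deletion within it. Xbp1, also read only as a whole gene, averaged 9022 ± 1834 in KO and 10996 ± 978 in WT. It did not pass the same test (log2 fold change of -0.30 ± 0.14, adjusted p = 0.168). Of 8 beta cell markers 6 were lower in KO, with a summed level of 2531401 to 3474953 in KO and 5341060 to 5976875 in WT. All 5 alpha cell markers were higher in KO, with a summed level of 1910221 to 2610587 in KO and 399103 to 1039542 in WT, and 4 of 5 markers of delta, PP and epsilon cells were higher too. In bulk islets, fewer beta cells and less RNA per beta cell cannot be told apart.

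Of the 35 genes 17 were lower in KO, against a background of 9.81% of the 14121 genes tested (limma-trend on log2(value + 1), Benjamini-Hochberg adjusted p under 0.05 over all tested genes). None was higher, against a background of 11.1%. In that direction the limma count at an unadjusted p under 0.05 was also 0, as was the count in the authors' deposited table. The remaining 18 genes did not pass. In 19 genes every KO library lay below every WT library, which held for 12.3% of all tested genes. The median log2 fold change was -0.38, or 77.0% of WT, while the median of all tested genes was -0.0008. A negative fold change was seen for 33 of the 35 genes and for 50.1% of all tested genes. All fold changes are of value + 1, which understates those of low genes, and their errors are limma's standard errors.

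**Figure D1:**
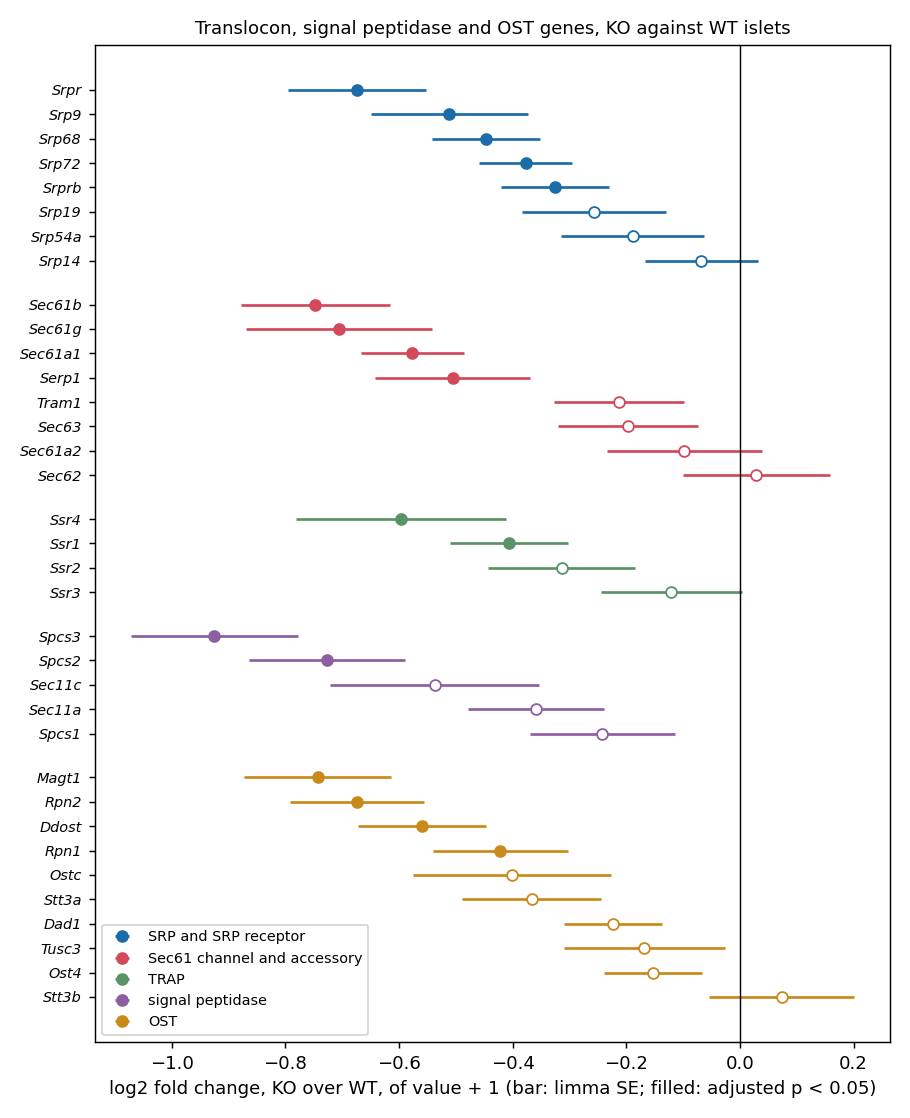
Log2 fold change of each gene, KO over WT, by complex, with limma standard errors; filled points passed an adjusted p of 0.05. The filled points are 17 genes, all left of 0, with Spcs3 farthest left at -0.92, and Sec62 and Stt3b are the open points right of 0.

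The falls were spread over all 5 complexes. By complex, 5 of 8 SRP genes, 4 of 8 Sec61 genes, 2 of 4 TRAP genes, 2 of 5 signal peptidase genes and 4 of 10 OST genes were lower. The median log2 fold change was -0.54 for signal peptidase, -0.38 for OST, -0.36 each for Sec61 and TRAP, and -0.35 for SRP. Signal peptidase transcripts summed to 19496 ± 2529 in KO and 31466 ± 5368 in WT (SD, n = 4 each). OST transcripts summed to 67118 ± 4771 in KO and 93936 ± 13330 in WT. Whether complexes differed from each other was not tested.

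Among the proteins of SRP itself, Srp9 and Srp14 form the pair that slows the ribosome. Srp9 had 867, 1162, 1154 and 1158 in the KO libraries, against 1807, 1636, 1499 and 1254 in the WT libraries, here and below in the order of replicates 1 to 4. All KO values were below all WT values, and Srp9 fell by 0.51 ± 0.14 on the log2 scale (adjusted p = 0.0299). Its partner Srp14 had 1651, 2123, 2087 and 2135 in KO, and 2281, 2025, 2023 and 2016 in WT. These overlapped, and Srp14 did not pass (log2 fold change of -0.07 ± 0.10, adjusted p = 0.679). The difference between the partners was not tested.

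Srp68 and Srp72, which bind the SRP RNA as a pair, both fell. Srp68 had 1657, 1855, 1584 and 1557 in KO, against 2392, 2536, 2067 and 2085 in WT, without overlap (log2 fold change of -0.45 ± 0.09, adjusted p = 0.0112). Srp72 had 5694, 6483, 6604 and 6807 in KO, against 9070, 7925, 8003 and 8200 in WT, also without overlap (-0.38 ± 0.08, adjusted p = 0.0123). Srp54a, the GTPase that holds the signal sequence, had 3606 to 5177 in KO and 4514 to 5727 in WT and did not pass (-0.19, adjusted p = 0.327). Srp19, which helps load that GTPase onto the SRP RNA, had 321 to 474 in KO and 447 to 514 in WT and did not pass either (-0.26, adjusted p = 0.189). Of the 50-base words of Srp54a transcripts, 75.4% also occur in transcripts that GENCODE M21 names Srp54b. How reads were divided between these copies is therefore uncertain. In the deposited table the gene named Srp54b carries an ID that GENCODE M21 names Srp54c.

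The SRP receptor showed the largest fall of this group. Srpr (ENSMUSG00000032042), on the plus strand of GRCm38 chr9:35200175-35247973 in GENCODE M21, encodes the GTPase that receives SRP at the membrane. It had 9422, 12584, 12914 and 12064 in KO, against 21083, 19556, 17135 and 16958 in WT. The groups were far apart, KO replicate 1 was the lowest library, and the log2 fold change was -0.67 ± 0.12 (62.7% of WT, adjusted p = 0.00535). Srprb, the membrane anchor of the receptor, had 1890, 2270, 2007 and 2065 in KO, against 2881, 2744, 2423 and 2288 in WT. The highest KO library lay just below the lowest WT library, and Srprb fell by 0.33 ± 0.10 on the log2 scale (79.8% of WT, adjusted p = 0.0413). Srprb shares 27.7% of its 50-base words with the overlapping model Gm20425, which was higher in KO (201.8 ± 40.0 in KO and 92.3 ± 19.1 in WT). Srpr shares 18.3% of its words with other genes, and Srp9 shares 14.8%.

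Promoter windows, from 250 bases before to 50 after the start site, were scanned because the genes moved together and several are known XBP1 targets. RefSeq on GRCm38.p6 gave 27 windows for 26 of the 35 genes. Both strands were searched for TGACGTG, for GCCACGT and for the ER stress elements ERSE and ERSE-II. In ERSE the sequence CCAAT is followed, after any 9 bases, by the half-site CCACG. In ERSE-II the same half-site follows ATTGG after any 1 base. TGACGTG and GCCACGT can overlap in ACGTG, but no window of these genes held both. TGACGTG was found in 1 of the 27 windows and in 2.01% of all 32851 windows, and GCCACGT in 5 of the 27 and in 2.58% of all. Either ERSE form was found in 0 of the 27, with 0.119% of all windows holding ERSE and 0.0365% holding ERSE-II. The windows below belong to the genes that fell and held a match. They are printed 5′ to 3′ on the gene's strand, with matches in capitals.
Srpr, plus strand of chr9:35210953-35211252: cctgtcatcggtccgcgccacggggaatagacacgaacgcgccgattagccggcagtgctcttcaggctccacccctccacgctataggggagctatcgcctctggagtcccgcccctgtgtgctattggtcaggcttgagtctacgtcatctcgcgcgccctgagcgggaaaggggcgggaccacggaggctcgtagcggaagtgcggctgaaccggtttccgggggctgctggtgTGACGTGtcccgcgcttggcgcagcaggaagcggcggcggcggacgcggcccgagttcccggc
Srprb, minus strand of chr9:103202016-103202315: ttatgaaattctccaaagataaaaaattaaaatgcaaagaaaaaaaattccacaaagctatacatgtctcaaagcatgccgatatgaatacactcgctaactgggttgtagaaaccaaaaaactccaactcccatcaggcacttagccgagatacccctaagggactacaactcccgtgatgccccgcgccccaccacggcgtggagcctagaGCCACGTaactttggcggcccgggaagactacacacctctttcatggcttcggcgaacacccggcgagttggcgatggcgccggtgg
Ssr1, minus strand of chr13:37994159-37994458: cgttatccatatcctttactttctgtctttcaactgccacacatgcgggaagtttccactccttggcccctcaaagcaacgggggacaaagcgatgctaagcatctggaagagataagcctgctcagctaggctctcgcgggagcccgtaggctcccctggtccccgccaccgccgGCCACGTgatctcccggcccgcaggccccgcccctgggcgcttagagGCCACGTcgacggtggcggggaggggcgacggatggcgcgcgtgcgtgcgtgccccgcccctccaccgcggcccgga

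In the Srpr window TGACGTG began at position -13 relative to the start site. In the Srprb window GCCACGT began at -37, and in the Ssr1 window it began at -74 and again at -27. Spcs1, Sec63 and Ssr3, which did not pass the test, held GCCACGT at -61, -23 and -191. Sec61b, Magt1 and Spcs2, with some of the largest falls, held no match in their windows. Srp19, Srp68, Sec61a1, Tram1, Ssr2, Spcs3, Sec11c, Ostc and Tusc3 were not in the table of windows. A match is only a stretch of letters, and binding was not measured.

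In the channel itself, all 3 subunits of the main Sec61 complex fell. Sec61a1 forms the pore, and it had 7671, 9310, 7854 and 7984 in KO, against 13084, 12687, 12217 and 10909 in WT. Sec61b (ENSMUSG00000053317, plus strand of GRCm38 chr4:47474658-47483242), a small subunit anchored by its tail, had 1617, 2383, 1924 and 1783 in KO, against 3506, 3566, 2848 and 2948 in WT. Neither gene's groups overlapped: Sec61a1 stood at 67.1% of WT (log2 fold change of -0.58 ± 0.09, adjusted p = 0.00277) and Sec61b at 59.6% of WT (-0.75 ± 0.13, adjusted p = 0.0047). Sec61g, the other small subunit, had 146, 144, 211 and 167 in KO, against 323, 281, 252 and 231 in WT, also without overlap (-0.71 ± 0.16, adjusted p = 0.0163). Gm10177, a near-identical copy on another chromosome that holds 18.3% of the 50-base words of Sec61g, had 2307 ± 568 in KO and 3977 ± 579 in WT. Summed with it, Sec61g had 2474 ± 590 in KO and 4248 ± 618 in WT (SD, n = 4 each). Sec61b shares 31.5% of its 50-base words with other genes, chiefly Gm10320.

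Sec61a2, the second pore-forming paralog, was scarce and did not pass the test. It had 245, 262, 320 and 298 in KO, and 363, 283, 295 and 265 in WT, which overlapped (log2 fold change of -0.10, adjusted p = 0.661). Per kilobase of merged exons of all transcripts, Sec61a1 stood at 1219 ± 111 in KO and 1816 ± 141 in WT, and Sec61a2 at 61.5 ± 7.4 in KO and 65.9 ± 9.4 in WT. Over coding transcripts alone Sec61a1 stood at 2587 ± 236 in KO and 3854 ± 298 in WT, and Sec61a2 at 111 ± 13.4 in KO and 119 ± 16.9 in WT.

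Of the 4 genes for accessory proteins of the channel, 1 fell. Serp1 (RAMP4), a small stress-associated protein that binds Sec61, had 6595, 8887, 9168 and 9395 in KO, against 14444, 10828, 11205 and 11685 in WT. The groups did not overlap, and Serp1 fell by 0.51 ± 0.14 on the log2 scale (adjusted p = 0.0297). With replicate number as a block the adjusted p was 0.0523, and Serp1 was the only one of the 17 genes to lose its call. Sec62, which serves post-translational entry, had 3930, 3992, 4840 and 5116 in KO, and 4371, 3737, 4144 and 5294 in WT (0.03 ± 0.13, adjusted p = 0.901). Its partner Sec63, which recruits the chaperone BiP, had 3012 to 3421 in KO and 2873 to 4425 in WT (-0.20, adjusted p = 0.294). Tram1, a membrane protein beside the channel, had 14248 to 17548 in KO and 16424 to 21969 in WT (-0.21, adjusted p = 0.223). The groups of Sec62, Sec63 and Tram1 overlapped.

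TRAP assists the entry of some signal sequences, preproinsulin's among them, and its 4 subunits are numbered Ssr1 to Ssr4. Ssr1 had 7752, 9109, 7617 and 8732 in KO, against 12778, 11069, 9665 and 10604 in WT, without overlap (log2 fold change of -0.41 ± 0.10, adjusted p = 0.0235). Ssr4 (ENSMUSG00000002014, plus strand of GRCm38 chrX:73787028-73790830) had 4027, 5820, 5854 and 5049 in KO, against 9382, 9662, 6752 and 5911 in WT. The KO libraries ended just below the lowest WT library, and the WT libraries were widely spread (-0.60 ± 0.18, adjusted p = 0.0496). Ssr2 had 4457, 5916, 4734 and 4498 in KO, and 6959, 6732, 5105 and 5603 in WT. Ssr3, the TRAP gene with the smallest difference, had 10631, 13109, 13984 and 13835 in KO, and 16650, 12644, 12489 and 14332 in WT. Both overlapped and neither passed (Ssr2 -0.31, adjusted p = 0.119, and Ssr3 -0.12, adjusted p = 0.536).

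Signal peptidase held the largest fall of the 35 genes. Spcs3 (ENSMUSG00000054408, minus strand of GRCm38 chr8:54520433-54529998) encodes a subunit with a luminal domain that is needed for cleavage. It had 6401, 9045, 7875 and 7544 in KO, against 18533, 14974, 12636 and 12742 in WT. Even the highest KO library was well below the lowest WT library, and Spcs3 stood at 52.7% of WT (log2 fold change of -0.92 ± 0.15, adjusted p = 0.0029). Spcs2, which touches the translocon, had 3501, 5129, 4578 and 4542 in KO, against 8734, 7476, 6412 and 6688 in WT. The groups were again apart, with a log2 fold change of -0.73 ± 0.14 (60.4% of WT, adjusted p = 0.00648). Spcs1, a small accessory subunit, had 3091, 3800, 3905 and 3765 in KO, and 5245, 4564, 3822 and 3694 in WT, with overlap (-0.24, adjusted p = 0.213).

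The catalytic subunits of signal peptidase lay lower in KO without passing the test. Sec11a had 1605, 1759, 1794 and 1838 in KO, and 2676, 2497, 1992 and 1891 in WT (log2 fold change of -0.36 ± 0.12, adjusted p = 0.0637). Its paralog Sec11c had 1391, 2219, 2264 and 1936 in KO, and 3351, 3225, 2437 and 2276 in WT (-0.54 ± 0.18, adjusted p = 0.0691). In both, all KO libraries lay below all WT libraries, by a narrow margin. Sec11a, Sec11c and Stt3a had an FDR under 0.05 in the authors' deposited table, as did Ssr2 and Ostc. That table called 22 of the 35 genes lower, against 13.1% of all its genes.

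**Figure D2:**
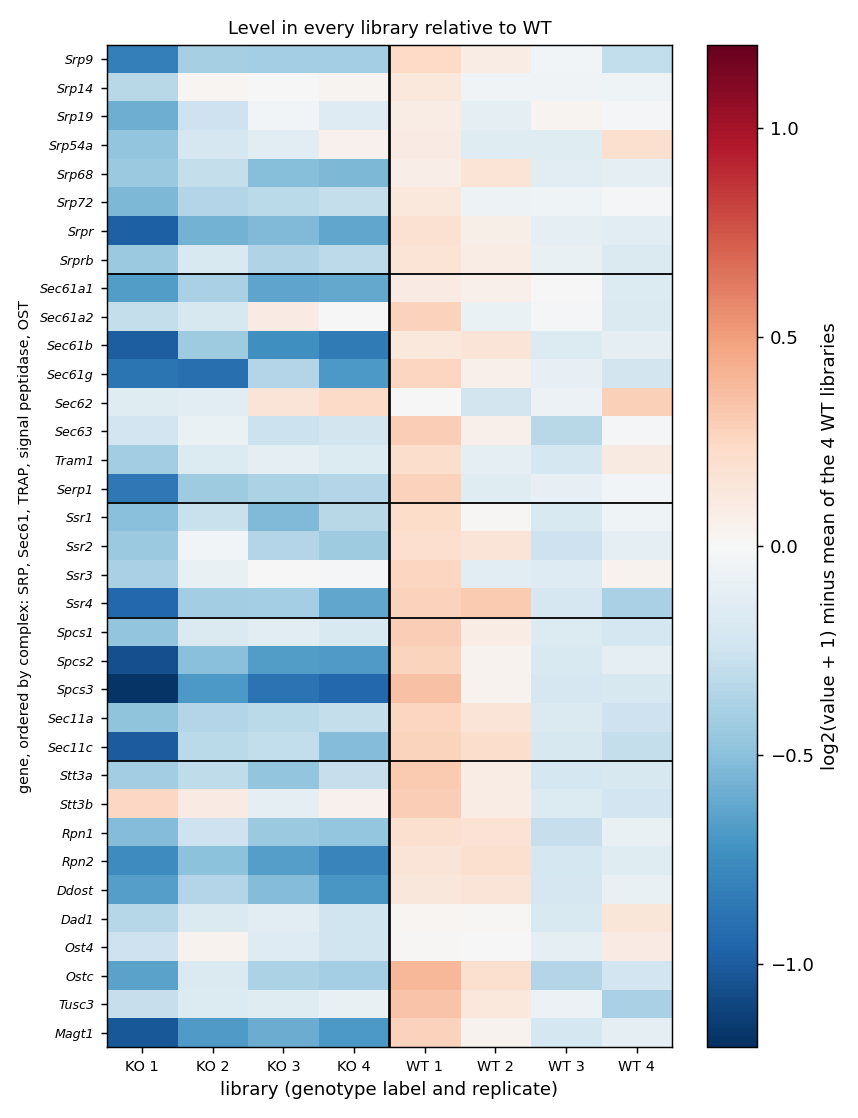
Log2(value + 1) of each gene in each library, minus the mean of the 4 WT libraries, by complex; blue is lower and red higher, and a line separates the 4 KO from the 4 WT libraries. KO replicate 1 is the bluest column, with a median of -0.50 over the 35 genes, and WT replicate 1 the reddest, with a median of 0.22.

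OST comes as alternative forms built on a shared core. Among the core subunits, Rpn2, Ddost and Rpn1 fell. Rpn2 had 13064, 15704, 13968 and 12740 in KO, against 24604, 25212, 19056 and 19949 in WT (log2 fold change of -0.67 ± 0.12, 62.7% of WT, adjusted p = 0.00468). Ddost had 9668, 12000, 10654 and 9439 in KO, against 16783, 17050, 13343 and 14400 in WT (-0.56 ± 0.11, 67.9% of WT, adjusted p = 0.00858). Neither of these overlapped. Rpn1 had 10177, 12231, 10694 and 10553 in KO, against 16690, 16400, 12028 and 13720 in WT, where KO replicate 2 exceeded WT replicate 3 (-0.42 ± 0.12, adjusted p = 0.0355). Dad1 and Ost4, the small core subunits, did not pass. Dad1 had 3550 to 4142 in KO and 3988 to 4977 in WT (-0.22, adjusted p = 0.101), and Ost4 had 1455 to 1779 in KO and 1610 to 1849 in WT (-0.15, adjusted p = 0.248).

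The catalytic subunits define the forms, Stt3a acting as the chain enters and Stt3b on sites that were missed. Stt3a had 7403, 7965, 7122 and 8169 in KO, and 12257, 10491, 8512 and 8655 in WT. It did not pass, although the groups did not overlap (log2 fold change of -0.37 ± 0.12, adjusted p = 0.0639). Stt3b had 4531, 4077, 3537 and 3949 in KO, and 4686, 4057, 3406 and 3251 in WT, which overlapped (0.07 ± 0.13, adjusted p = 0.732). Ostc, which ties the Stt3a form to the channel, had 4201, 5825, 5056 and 4959 in KO, and 8667, 7505, 5134 and 5586 in WT (-0.40, adjusted p = 0.135).

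Magt1 and Tusc3 are oxidoreductase subunits of the Stt3b form, of which a complex holds either. Magt1 (ENSMUSG00000031232, minus strand of GRCm38 chrX:105968084-106011906) had 5633, 7139, 7553 and 7092 in KO, against 13845, 11720, 9838 and 10584 in WT. The groups were far apart, with the largest fall among the 10 OST genes (log2 fold change of -0.74 ± 0.13, 59.8% of WT, adjusted p = 0.00448). Tusc3 had 2688, 2910, 2951 and 3074 in KO, and 4131, 3550, 3100 and 2489 in WT, with overlap (-0.17, adjusted p = 0.443). Its KO libraries lay close together while its WT libraries spread across them.

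Within 4 paralog pairs the balance of the transcripts was compared library by library, as the difference of log2(value + 1), with an exact two-sided permutation test and adjustment over the 4 pairs. Libraries were permuted without regard to replicate number, so any pairing by number was ignored. The smallest p that 4 against 4 libraries allow in this way is 0.0286. Stt3b minus Stt3a was -0.93 ± 0.15 in KO and -1.37 ± 0.04 in WT (SD, n = 4 each, exact p = 0.0286, adjusted 0.0381), so Stt3b was higher relative to Stt3a in KO by 0.44. Tusc3 minus Magt1 was -1.23 ± 0.13 in KO and -1.81 ± 0.19 in WT (exact p = 0.0286, adjusted 0.0381), a difference of 0.57. Sec61a2 minus Sec61a1 was -4.87 ± 0.24 in KO and -5.34 ± 0.13 in WT (exact p = 0.0286, adjusted 0.0381), a difference of 0.48. In these 3 pairs every KO library exceeded every WT library. Sec11c minus Sec11a was 0.13 ± 0.26 in KO and 0.31 ± 0.04 in WT, a difference of -0.18 ± 0.13 (SE) with overlap (exact p = 0.343, adjusted 0.343). For Sec61a2 the exact p was 0.0571 without KO replicate 3 or without any 1 of the WT libraries, and the differences ran from 0.39 to 0.57 over the 8 tests that left out 1 library.

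**Figure D3:**
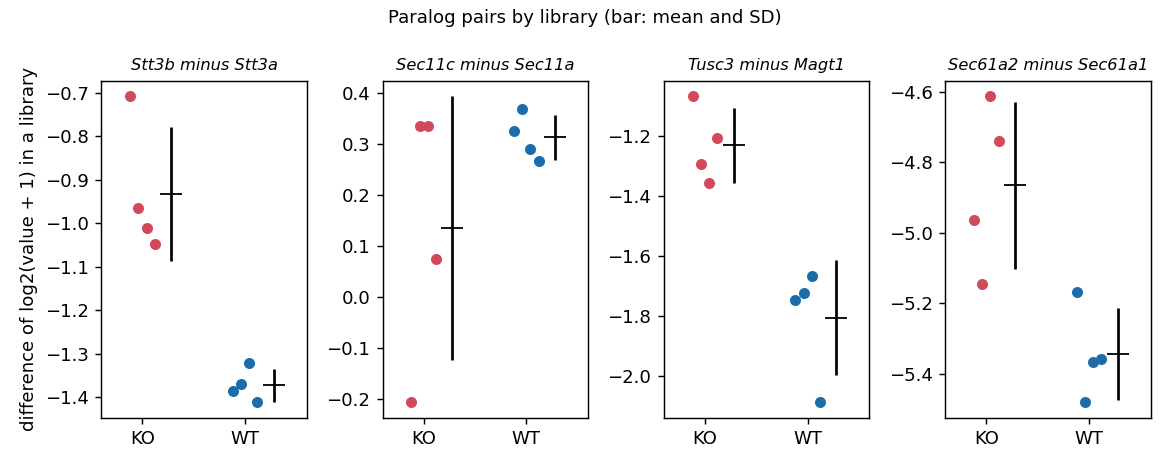
Difference of log2(value + 1) between the genes of a paralog pair in each library, KO left of WT, with the mean and SD beside the points. KO points lie above all WT points for Stt3b minus Stt3a, Tusc3 minus Magt1 and Sec61a2 minus Sec61a1, and the groups overlap for Sec11c minus Sec11a.

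Levels could be set side by side between genes after dividing by merged exon length from GENCODE M21. The order within a complex depended on whether the exons of all annotated transcripts or those of protein-coding transcripts alone were merged, the second choice being made after seeing the data. Srpr was the highest SRP gene with either length, at 3492 ± 472 per kilobase in KO and 5554 ± 592 in WT over all transcripts. Srp19 was the lowest with either length, at 113 ± 17.8 in KO and 133 ± 7.8 in WT over all transcripts, and at 467 ± 73.8 in KO and 553 ± 32.5 in WT over coding transcripts. Tram1 led the Sec61 group with either length, at 5197 ± 469 in KO and 6043 ± 806 in WT over all transcripts. Gm10177, the near-identical copy of Sec61g, was not ranked. It stood at 5197 ± 1280 per kilobase in KO and 8956 ± 1304 in WT, so the place of Sec61g is uncertain. Stt3b was the lowest OST gene in WT with either length, at 953 ± 97 in KO and 912 ± 156 in WT. Other places changed: Ddost, with 4925 ± 550 in KO and 7261 ± 855 in WT by either length, led OST over all transcripts, while Rpn2 led over coding transcripts with 4946 ± 474 in KO and 7919 ± 1124 in WT, within 1 SD of Ddost. Ssr4 was below Ssr2 and Ssr3 over all transcripts (1676 ± 277 in KO and 2560 ± 606 in WT) and led TRAP over coding transcripts (6468 ± 1070 in KO and 9884 ± 2341 in WT).

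In signal peptidase Spcs3 led in WT with either length, at 2226 ± 314 per kilobase in KO and 4247 ± 796 in WT. The place of the catalytic subunit Sec11c rests on the length used. Over all transcripts, which include retained introns, it was the lowest of the 5 genes, with 287 ± 59 in KO and 415 ± 80 in WT. Over coding transcripts it had 2165 ± 445 in KO and 3129 ± 603 in WT, above Spcs2 (1243 ± 190 in KO and 2053 ± 291 in WT). Sec11a, the other catalytic subunit, lay below Spcs1, Spcs2 and Spcs3 with either length, at 978 ± 57 in KO and 1266 ± 213 in WT over coding transcripts.

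**Figure D4:**
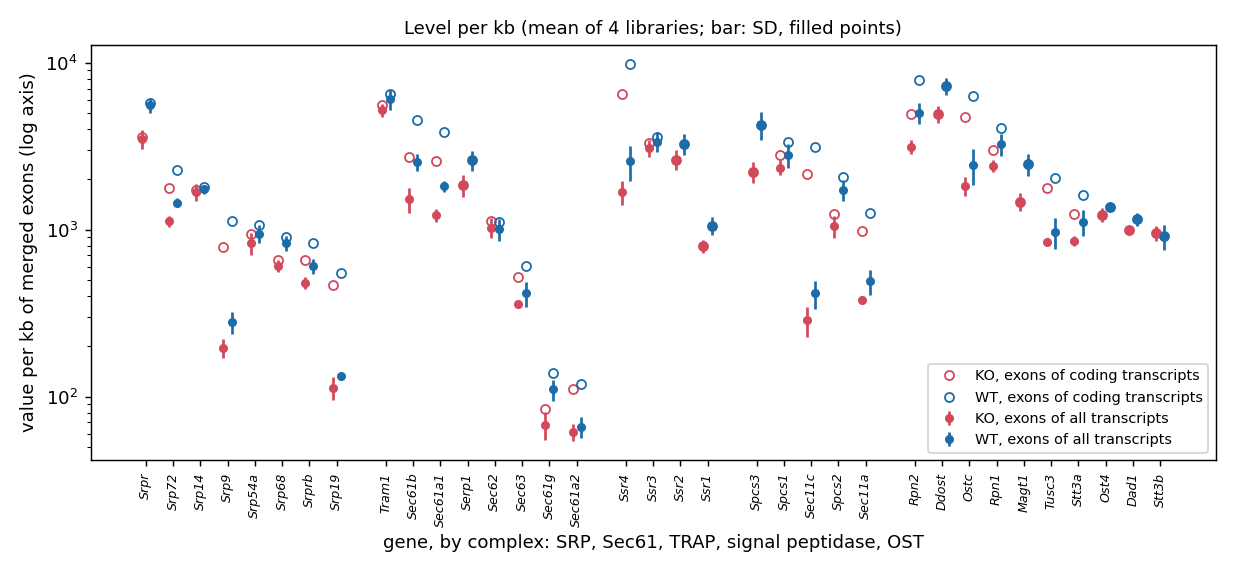
Value per kilobase of merged exons for each gene by complex, KO left of WT, as means of 4 libraries on a log axis. Filled points with SD bars use the exons of all annotated transcripts and open points those of protein-coding transcripts, and the filled and open points of Sec11c lie far apart, at 415 and 3129 in WT.

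The size of the difference was not the same in all libraries. KO replicate 1 was the lowest KO library for 27 of the 35 genes, and WT replicate 1 was the highest WT library for 26. Without KO replicate 1, 11 of the 35 genes were lower, against 6.64% of all genes in that fit, and without WT replicate 1 there were 12, against 7.6%. The 11 genes called in all 8 fits that left out 1 library were Srp68, Srp72, Srpr, Sec61a1, Sec61b, Sec61g, Spcs2, Spcs3, Rpn2, Ddost and Magt1. Of the others, Ssr4 lost its call in 7 of the fits, all but that without WT replicate 4, with adjusted p up to 0.123. Srp9 (up to 0.0786) and Srprb (up to 0.109) lost it in 6, all but those without KO replicate 2 or WT replicate 4. Rpn1 lost it without KO replicate 1, 3 or 4 or WT replicate 1 or 2 (up to 0.0955). Serp1 lost it without KO replicate 1 or 2 or WT replicate 1 (up to 0.0666), and Ssr1 without KO replicate 1 or 3 or WT replicate 2 (up to 0.0684).

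Earlier results of these data had set replicates 1 and 2 apart from replicates 3 and 4, and the genes were compared within each of these sets. The sets were thus not chosen independently of the libraries compared. The median log2 fold change of the 35 genes was -0.51 in replicates 1 and 2 and -0.21 in replicates 3 and 4. In replicates 1 and 2 alone, 23 genes were lower, against 11.1% of all genes. In replicates 3 and 4 alone, 9 were lower, against 11.5% of all genes: Srp68, Srpr, Sec61a1, Sec61b, Spcs2, Spcs3, Rpn2, Ddost and Magt1. Spcs3 had -1.13 in replicates 1 and 2 and -0.72 in replicates 3 and 4, whereas Sec11c had -0.90 and -0.17 in the same order and Ssr4 had -0.98 and -0.22. Sec61a1 was among the most even, with -0.61 and -0.54. For 34 of the 35 genes the fold change was lower in replicates 1 and 2, Ost4 being the exception, and this held for 51.6% of all tested genes. In limma's test of the difference between the sets, 0 of the 35 genes passed (lowest adjusted p = 0.109), and 14 genes, 0.0991% of the table, did so overall. At an unadjusted p under 0.05 the count was 11 of the 35, beside 18.8% of all genes, and limma without a trend also gave 0 adjusted calls.

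**Figure D5:**
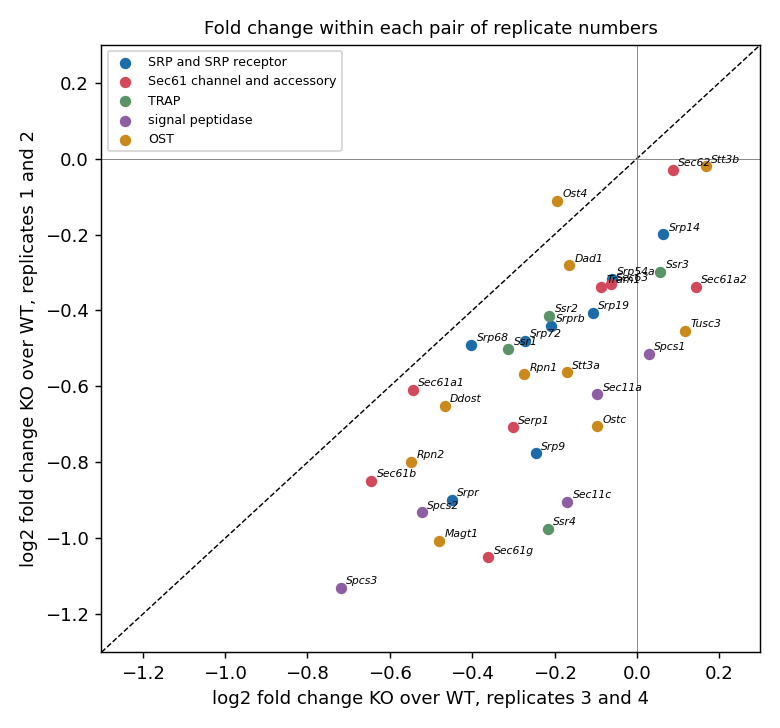
Log2 fold change, KO over WT, within replicates 1 and 2 (vertical axis) and within replicates 3 and 4 (horizontal axis), with points coloured by complex and a dashed line where both are equal. Every point but Ost4 lies below the line, and Spcs3 is lowest at -1.13 and -0.72.

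Markers of other cell types also differed between these sets. The 9 measured markers of acinar cells, the enzyme-secreting cells around the islets, summed to 132352 to 392606 in KO and 17655 to 253092 in WT. None of the 9 passed in limma, 6 were higher at an unadjusted p under 0.05, 8 were higher in the authors' deposited table, and 1 was higher with replicate number as a block. Their median log2 fold change was 2.82 in replicates 1 and 2 and 0.73 in replicates 3 and 4. With the mean acinar level as a covariate, 8 of the 35 genes were lower, against 6.91% of all genes in that fit: Srp72, Srpr, Sec61a1, Sec61b, Spcs2, Spcs3, Rpn2 and Magt1. The median log2 fold change of the 35 genes in that fit was -0.27, against -0.38 in the main fit. The acinar markers themselves had a median log2 fold change of 1.76, KO over WT, in the main fit. Acinar level and genotype thus overlap, and the covariate fit cannot tell them apart. Of the 9 genes that lost their call, some kept a similar fold, such as Serp1 (-0.56), Sec61g (-0.65) and Srp9 (-0.47). Others had smaller falls than in the main fit: Ssr4 (-0.43 against -0.60), Srp68 (-0.33 against -0.45), Ssr1 (-0.32 against -0.41) and Srprb (-0.25 against -0.33). Alpha cell markers had medians of 1.92 and 0.75 in the same order of sets, and beta cell markers of -0.78 and -1.10. Ductal markers summed to 11116 to 26983 in KO and 5608 to 6525 in WT, with 1 of 5 higher, or 3 with the block. Stellate markers summed to 2552 to 6469 in KO and 823 to 3382 in WT, with 0 of 4 passing, 1 higher at an unadjusted p under 0.05, and 4 higher with the block and in the authors' deposited table. Of 5 listed markers of B and plasma cells, 3 were measured, and they summed to 86 to 222 in KO and 182 to 443 in WT, with 1 lower. None of the 5 macrophage, 4 endothelial and 3 measured Schwann cell markers or the 1 measured T cell marker passed in limma or in the authors' deposited table, and 1 macrophage marker was higher at an unadjusted p under 0.05. None of the measured markers was at 0 in every library, and the part of these cell types in the falls was not tested.

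Genes that act beside the members in the same pathway were counted in the same fit, to be read against the 9.81% of all tested genes that were lower and the 11.1% that were higher. All 3 listed OST genes outside the 35 fell. On the log2 scale the subunits Tmem258 and Krtcap2 fell by 0.75 and 0.44. Mlec, a lectin that binds OST, fell by 0.43. Of 23 genes that build the lipid-linked glycan which OST transfers, 4 fell and none rose (0 also at an unadjusted p under 0.05 and in the authors' deposited table). They were Alg1 (-0.69), Alg2 (-0.42), Dhdds (-0.47) and Dpm2 (-0.31), with Dpm2 named after its value was seen, to complete the count. In glycan trimming and the calnexin cycle 2 of 8 fell, the folding sensor Uggt1 (-0.60) and the glucosidase Mogs (-0.35).

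Other insertion routes had few members past the threshold, with shares that can be read against the same background of 9.81% lower. In the ER membrane protein complex 1 of 10 genes fell (Emc9, -0.47), a share near that background. Falls were also seen in 2 of 7 genes of tail-anchored insertion (Get4, -0.48, and Asna1, -0.43) and 1 of 6 of the multipass translocon (Tmem147, -0.78). No gene of GPI transamidase, which adds lipid anchors, passed in limma, with 1 of 5 lower and 1 higher at an unadjusted p under 0.05 and in the authors' deposited table. Of 11 measured genes for nascent chain contact and other translocation, 1 fell (Tmem208, -0.55) and 2 rose (Tram1l1, 1.00, and Btf3, 0.34). Tram1l1, a relative of Tram1, was scarce, with 90, 60, 73 and 67 in KO, against 26, 37, 40 and 40 in WT. Per kilobase it stood at 18.6 ± 3.3 in KO and 9.2 ± 1.7 in WT, against 5197 ± 469 in KO and 6043 ± 806 in WT for Tram1.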

How the data were processed

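Bulk RNA sequencing of islets from 8 mice gave 8 libraries, 4 KO and 4 WT, grouped by their titles. The genome build was GRCm38.p5, and the named tools were edgeR 3.16.15, RSEM 1.2.31, STAR 2.5.3a and bcl2fastq 2.20, as listed in the submitters' processing notes. Settings and strandedness are not given. The deposited table holds, per library, counts that the authors had normalized and rounded, a score with no fixed unit rather than raw counts. It also holds the authors' log2 fold change, likelihood ratio score, p-value and FDR from edgeR. Because the values are not counts, no count test was run.

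Limma-trend (limma 3.58.1, R 4.3.3, empirical Bayes) was run on log2(value + 1) for genes that reached a value of 1 in 4 or more libraries, which all 35 members passed, with Benjamini-Hochberg adjustment over 14121 genes and a threshold of 0.05. The fit was tested on simulated data. Paralog pairs were compared with exact permutation tests. The members and lists were chosen with earlier results of these data known. All 35 members are named, with up to 3 called genes of each pathway list in each direction, Ern1 and Xbp1. Dpm2, a further called gene of its list, and the models Gm20425, Gm10177 and Gm10320 fall outside this rule and were named after their values or shared sequence were seen.

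Replicate numbers 1 to 4 occur in both groups. Same-numbered libraries deviated together from their group means (r of 0.327, 0.583, 0.664 and 0.381 across 13081 genes with a mean value above 50, which are not independent). The numbers may therefore mark pairs. The main fit and the permutation tests did not use them, and a replicate block was tried only as an alternative fit. Other alternatives were the pseudocount, the filter, the scaling, the trend, a library set term, each set alone, an acinar covariate and leaving out each library. Exon lengths and positions are from GENCODE M21, where 14114 of 14126 gene IDs were found. Sequence sharing was counted in words of 50 bases of protein-coding member transcripts against all its transcripts. Levels per kilobase used merged exons of all transcripts and, added after seeing the data, of protein-coding transcripts alone.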

Additional observations from a re-analysis of the deposited data

Results flagged for a closer look

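Srp9 in the KO libraries was flagged because KO replicate 1, at 867, lay far from the other 3 KO libraries. Srp14 was flagged for the same library, at 1651, and also in WT, where WT replicate 1, at 2281, lay far above the other 3. These were 3 flags among 70 gene groups, and chance alone flags about 1 in 20.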

How the results depend on the processing

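The 17 lower and 0 higher calls were the same with a pseudocount of 0.1 or 10, no filter, or a filter at 50. The counts below carry in brackets the share of all genes called lower, which was 9.81% in the main fit. Lower calls numbered 13 (7.2%) after rescaling to totals without hormone and mitochondrially encoded genes, 14 (7.6%) by the upper quartile and 14 (8.8%) without a trend. They numbered 16 (11.7%) with the replicate block, which changed no other call than that of Serp1. With library set as a term there were 21 (14.9%), in replicates 1 and 2 alone 23 (11.1%), in replicates 3 and 4 alone 9 (11.5%) and with the acinar covariate 8 (6.91%). Leaving out each library gave 11 to 20, with shares of all genes from 6.11% to 11.3%. No alternative gave a higher call. Over all genes the first of these rescalings gave 1746 higher and 1017 lower calls and the upper quartile 1849 and 1073, against 1562 and 1385. Log2 fold changes that changed sign were those of genes that did not pass: in replicates 3 and 4 alone Srp14 (0.064), Sec61a2 (0.14), Ssr3 (0.056), Spcs1 (0.029) and Tusc3 (0.12); in replicates 1 and 2 alone Sec62 (-0.029) and Stt3b (-0.021); and Sec62 with the acinar covariate (-0.077). Leaving out 1 library turned Srp14 (-0.10 to 0.022), Sec62 (-0.044 to 0.12) and Stt3b (-0.0028 to 0.17). For Sec61a2 minus Sec61a1 the range was 0.39 to 0.57, and the exact p was 0.0571 in 5 of the 8. The cause of these changes was not tested. Depth is unknown, so no counting error is given.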
